A study of Rattus norvegicus with 2 samples.

Results

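The 9 genes described here encode the feeding peptides of the arcuate nucleus of the hypothalamus and the receptors these peptides act on. They are the precursors Pomc, Cartpt, Agrp and Npy, the melanocortin receptors Mc3r and Mc4r, and the neuropeptide Y receptors Npy1r, Npy2r and Npy5r. They were chosen by name, with earlier results of these data known. All 9 were found among 16579 named genes by matching the RefSeq accessions of the array's probes to rat gene symbols. Values called male or female below are those of 1 RNA pool per sex. RNA came from the hypothalamus of spontaneously hypertensive rats (SHR), an inbred strain with high blood pressure, at 9 weeks of age. One group was male and the other female; both were of the same strain, ate and drank freely until the day of collection, and were killed by ether followed by decapitation. For each sex, 100 ng of RNA from each of 5 rats was combined into 1 pool, and the 2 pools went onto 1 single-colour (Cy3) Agilent array each. With 1 array per sex there was no test of any difference, and the spread between animals is unknown.

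Arcuate feeding control rests on opposed groups of neurons. One group makes pro-opiomelanocortin (Pomc), which is cut into melanocyte-stimulating hormone and other peptides, and many of these cells also make the CART peptide (Cartpt); both restrain feeding. The other group makes agouti-related peptide (Agrp) together with neuropeptide Y (Npy), and both promote feeding. Melanocyte-stimulating hormone activates, and agouti-related peptide blocks, the receptors Mc3r and Mc4r, while neuropeptide Y acts through Npy1r, Npy2r and Npy5r. Leptin and insulin from the blood raise the activity of the first group and lower that of the second.

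Of the 2 precursors named for each group of neurons, 1 was higher and the other lower in the male pool. These are signals of whole hypothalamus, and nothing was measured within either group. The split is one of sign only. The Cartpt difference lay within 2 SD of repeat spots (defined below), and less the median of the nearest spots each of these precursors did. Pomc and Agrp had a higher signal in the male pool, by 1.18-fold and 1.12-fold. Cartpt and Npy had a lower one, by log2 differences of -0.08 each, as did all 5 receptors, from -0.09 for Npy5r to -0.30 for Npy2r, although Mc4r and Npy5r changed sign with normexp, a model-based background correction. Thus 7 of the 9 genes were lower in the male pool, against 55.0% of the 24140 genes and unnamed transcripts that stood well above background on both arrays. None of the 9 reached a 2-fold difference, a size found for 4.17% of 26109 genes and transcripts measured on at least 1 array. Of the 24140 well above background on both arrays, as all 9 were, 426 were that far apart. Of the 12203 named genes among them 177 were, and 57.1% of these named genes were lower in the male pool.

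Each array was scaled to its own 75th percentile of spot signal, levels are given as a percentage of it, and differences are those of log2 signal, male minus female. The 9 genes had 10 probes and 19 spots; 8 genes had 1 probe, Npy2r had 2, and only the Npy probe was printed on more than 1 spot (10). The technical SD of a difference was taken from probes with repeat spots of similar brightness on the same arrays. For 1 spot it was 0.038 above the 75th percentile and 0.23 for the dimmest of these receptors. It covers spot printing and scanning and not animals, pooling or labelling. By this measure 4 of the 9 genes (Pomc, Agrp, Npy and Npy2r) differed by more than 2 technical SD, against 22.1% of all genes well above background on both arrays. The count moved with the setting. Less the median difference of the 18 nearest spots, with the SD taken anew from such differences, Npy2r alone passed, against 11.3% of all genes. For 1 spot above the 75th percentile that SD was larger, at 0.13. Agrp (0.17 before, 0.18 after) and Npy (-0.08 before, -0.07 after) fell below 2 technical SD with little change in the differences themselves. With an SD that does not pair spots across the arrays, Pomc, Npy and Npy2r passed (11.7% of all genes), with median centring 6 genes (32.1%), and without spots in patches, where spots 2-fold apart lay together, 5 of the 7 that kept a spot (25.7%).

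The arrays were alike in scale and in the share of spots detected, but large differences between them clustered in space. Of 1602 spots at least 2-fold apart, 73.0% lay in patches, against 10.6% of other spots. The 75th percentile was 2203 units for the male array and 2254 units for the female array, 71.6% and 73.0% of rat spots were well above background, and no spot was saturated. Over all genes the median difference was -0.016, with 5% below -0.28 and 5% above 0.34. Of 10 marker genes of the hypothalamus 8 were well above background on both arrays, among them Avp (vasopressin), Hcrt (orexin) and Pmch (melanin-concentrating hormone). The largest differences among them were those of Hcrt at -0.32 and of Sim1, a transcription factor gene, at -0.39 (-0.22 with normexp). The transcription factor gene Otp passed in the female pool alone, and Nr5a1, a marker of the ventromedial nucleus, in neither. In bulk tissue, fewer cells of a type and less RNA per cell cannot be told apart.

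**Figure D1:**
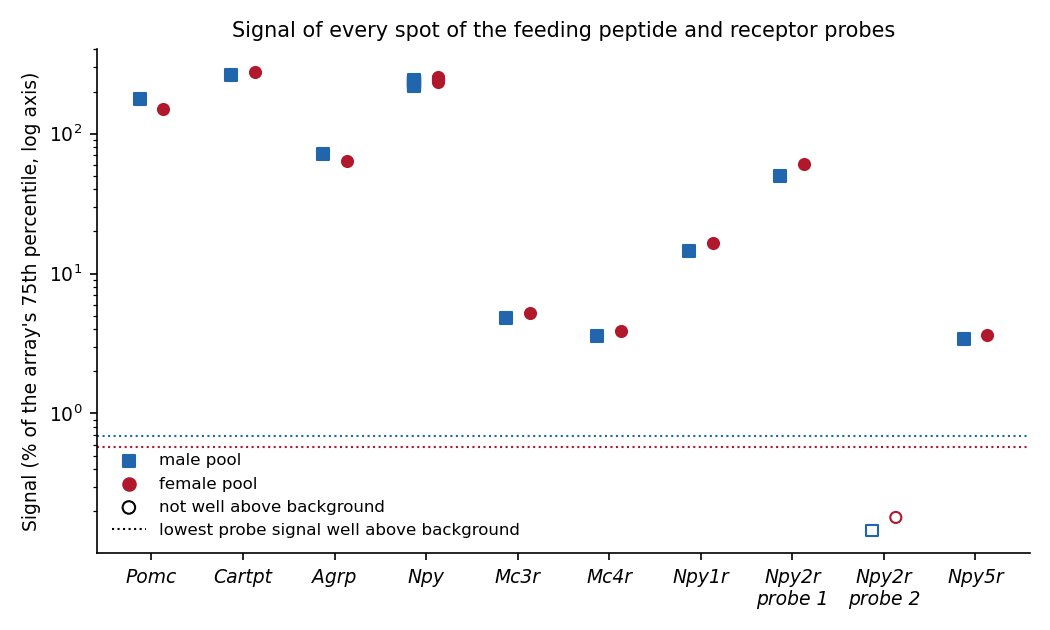
Signal of every spot of the 10 probes, as a percentage of the array's 75th percentile on a log axis, with squares for the male pool and circles for the female pool. All probes except the second of Npy2r lie above the dotted lines, drawn at the dimmest probe still called well above background (0.69% on the male and 0.57% on the female array).

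The stretches just before the transcript starts of the 4 precursor genes are shown because the 2 genes named for each cell group differed in direction in the bulk signal. Less the median of the nearest spots, the differences of Pomc and Cartpt were only 1.11 technical SD from each other. Each is 150 bases long, read 5′ to 3′ on the strand of the gene and ends at the base before the transcript start used in the RefSeq promoter table (GRCr8). Capitals mark matches, on either strand, to the TATA box (letters TATAAA), the cAMP response element (letters TGACGTCA) or the GC box (letters GGGCGG). The STAT site (letters TTCNNNGAA) and a forkhead site (letters GTAAACA) were also searched and had no match in these 4. The positions are chr6:32659203-32659352 (+) for Pomc, chr2:32991236-32991385 (-) for Cartpt, chr19:50359498-50359647 (-) for Agrp and chr4:80211961-80212110 (+) for Npy.
Pomc: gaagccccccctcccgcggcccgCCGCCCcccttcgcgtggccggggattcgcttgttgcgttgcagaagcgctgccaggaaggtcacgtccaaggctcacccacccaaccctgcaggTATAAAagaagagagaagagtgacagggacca
Cartpt: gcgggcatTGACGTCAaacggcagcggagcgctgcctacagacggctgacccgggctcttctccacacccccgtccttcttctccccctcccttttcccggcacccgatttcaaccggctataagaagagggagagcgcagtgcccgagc
Agrp: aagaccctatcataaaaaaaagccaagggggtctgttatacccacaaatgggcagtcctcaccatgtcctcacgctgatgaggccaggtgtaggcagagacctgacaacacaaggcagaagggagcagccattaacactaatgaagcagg
Npy: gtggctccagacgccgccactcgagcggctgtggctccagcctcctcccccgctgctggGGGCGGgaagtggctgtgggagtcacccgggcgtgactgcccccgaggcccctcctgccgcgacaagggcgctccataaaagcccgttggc

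The Pomc window held a TATA box starting 32 bases before the transcript start and a GC box, the latter read on the opposite strand. A cAMP response element stood 142 bases before the start of Cartpt. A GC box stood 91 bases before the start of Npy, and the Agrp window held none of the 5 motifs. Over all 33469 windows of this length in the table, 8.0% held the TATA box, 1.36% the cAMP response element, 26.0% the GC box, 4.41% the STAT site and 1.82% the forkhead site. These are letter matches and no binding was measured here.

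Pomc (NM_139326), the precursor of melanocyte-stimulating hormone, gave 178% of the 75th percentile in males and 151% in females. The male pool was higher by 0.24 on the log2 scale, which was 6.19 times the technical SD of 0.038 and 3.29 times the SD that does not pair spots. Its probe ranked 3311th of 45591 on the male array and 3832nd on the female array, counted from the brightest. Of all genes, 91.8% had a difference at or below that of Pomc, and 15.1% lay at least as far from 0 in either direction. Around this spot, the 18 closest measured spots of other genes also leaned towards the male array, with a median difference of 0.11. Less this local median the Pomc difference was 0.13, equal to its technical SD of 0.13 on that scale, so its sign was kept and its size was reduced by more than 1.5 times. No other spot of the 9 genes' brightest probes had a local median as far from 0, and the next was that of Mc4r at -0.06.

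Pomc is also the hormone precursor of pituitary corticotrophs and melanotrophs, and pituitary genes differed between the pools. Of 9 pituitary genes listed, 8 had a probe and 4 were well above background on both arrays. Tshb and Cga, the thyrotropin subunits, gave 12.4 and 4.08 times as much signal in males as in females, the first 3.49 times with normexp. Prl, which encodes prolactin, passed in females alone, at least 7.91-fold above males, on 1 spot that lay in a patch. The measured pituitary genes summed to 108% of the 75th percentile in males and 37.0% in females. Most of this was Cga alone, at 84.9% and 20.8%, on a spot in a patch (2.07 on the log2 scale less its local median). The median over the 4 genes well above background on both arrays was 1.19, and 0.35 with Prl added at its bound. Gh1 and Fshb, which mark growth hormone and gonadotropin cells, and Pax7, which marks melanotrophs, did not rise well above background on either. Lhb, another gonadotropin subunit gene, did, and was at 0.35 with a technical SD of 0.11. Pou1f1, a transcription factor gene of growth hormone, prolactin and thyrotropin cells, was at -0.32 on a dim spot in a patch (-0.13 with normexp). The part of pituitary RNA in the Pomc difference was not tested.

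Cartpt (NM_017110), the CART precursor, gave 261% of the 75th percentile in males and 275% in females. The difference of -0.08 was 1.97 times the technical SD, just inside 2, and 1.05 times the SD that does not pair spots. Its spot lay in a patch, with 2 near spots at least 2-fold higher in males. The probe ranked 2404th on the male array and 2316th on the female array. Cartpt and Pomc, although made in many of the same arcuate neurons, had differences 0.31 from each other on the log2 scale, against a technical SD of 0.054. Less the local medians they were 0.20 from each other, or 1.11 times the technical SD of 0.18 on that scale. Cartpt is also made in other hypothalamic regions, including neurons with melanin-concentrating hormone. The gene of that hormone, Pmch, was at -0.17.

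Agrp (NM_033650), the blocker of the melanocortin receptors, gave 71.4% in males and 63.5% in females. The male pool was higher by 0.17, or 3.04 times the technical SD of 0.056. The probe ranked 6362nd on the male array and 6884th on the female array, and 24.8% of genes differed by at least as much in either direction. The nearest spots had a local median of -0.0077, and less this the difference was 0.18, or 1.80 times its technical SD on that scale. Of those 18 spots 1 was 2-fold or more above in males.

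Npy (NM_012614) was measured on 10 spots per array, which makes it the most precisely measured of the 9 genes. On the male array the spots ran from 220% to 241% of the 75th percentile with a median of 234%. On the female array they ran from 235% to 254% with a median of 246%. The ranges overlapped, but on all 10 spots the male value was below the female value at the same position, by log2 differences of -0.19 to -0.0043. Their mean was -0.08 with an SD over spots of 0.049. These are repeat spots of the same 2 RNA pools, so they show how repeatable the reading was and say nothing of the spread between rats. The spot with the smallest difference was at 0.041 after its local median was taken off, the 1 spot of 10 with a changed sign.

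**Figure D2:**
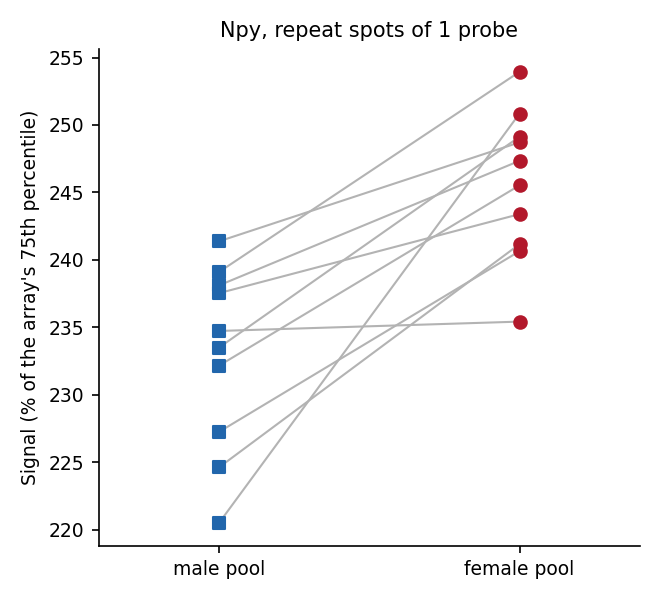
Signal of the 10 repeat spots of the Npy probe as a percentage of each array's 75th percentile, with grey lines joining the same spot position on the 2 arrays; the axis does not start at 0. All 10 lines rise from the male pool (220% to 241%) to the female pool (235% to 254%).

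Agrp and Npy are made by the same arcuate neurons. The difference of Agrp was 0.25 above that of Npy on the log2 scale, with a technical SD of 0.057 (0.11 less the local medians). It lay between 0.24 and 0.25 with normexp background correction, median centring, quantile normalization and less the local medians. Npy is in addition made by many neurons outside the arcuate nucleus, and a whole hypothalamic block does not separate these sources. The other 2 contrasts among precursors were small: Pomc was 0.07 above Agrp, equal to 1.01 technical SD and turning to -0.05 less the local medians, and Cartpt and Npy differed by 0.0013.

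Both melanocortin receptors were dim. Mc3r (NM_001025270), which is found on arcuate neurons themselves, gave 4.81% of the 75th percentile in males and 5.22% in females. Mc4r (NM_013099), the main receptor through which melanocortins restrain feeding, gave 3.60% in males and 3.90% in females. In units these were 106 and 118 for Mc3r and 79.3 and 87.9 for Mc4r, over a median local background of 33 units. Their differences of -0.12 each were 0.50 and 0.49 times the technical SD of 0.23, so no difference was detectable at this signal. With normexp background correction Mc3r was at -0.03 and Mc4r changed sign to 0.04. Mc3r ranked 19929th on the male and 19370th on the female array, and Mc4r 21528th and 20961st.

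The receptors for neuropeptide Y spanned a wider range of signal. Npy2r, the receptor that neuropeptide Y neurons carry on their own terminals, had the largest difference of the 9 genes. Its bright probe (XM_006232534) gave 49.5% in males and 61.0% in females. The difference of -0.30 was 5.39 times the technical SD of 0.056 and 3.46 times the SD that does not pair spots, and 4.39% of all genes had a difference that low or lower. The local median was -0.03, and less this Npy2r stood at -0.27, or 2.73 times its technical SD on that scale. It ranked 7827th on the male array and 7026th on the female array. The second probe of this gene (NM_023968) was not distinguished from background in either pool, at 0.15% and 0.18%, so the difference rests on 1 probe and 1 spot. The 2 probes carry different transcript accessions, and their place within the gene was not analysed here.

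Npy1r (NM_001113357), a receptor on target neurons that promotes feeding, gave 14.6% in males and 16.4% in females. The difference of -0.17 was 1.57 times the technical SD of 0.11, and 12.1% of genes had a difference that low or lower. Npy5r (NM_012869), which shares that role, gave 3.43% in males and 3.65% in females. Its difference of -0.09 was 0.38 times the technical SD, and it changed sign to 0.05 with normexp. Its only spot lay in a patch, with 3 near spots at least 2-fold higher in males, so it has no value without such spots. Npy1r and Npy5r are neighbouring genes on chromosome 16. Their differences were 0.08 apart with a technical SD of 0.26, so whether they differed alike cannot be read at this signal. Npy2r and Npy1r were 0.13 apart with a technical SD of 0.12. Npy2r was 0.22 below its ligand gene Npy, with a technical SD of 0.057 (0.20 less the local medians, with an SD of 0.11).

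**Figure D3:**
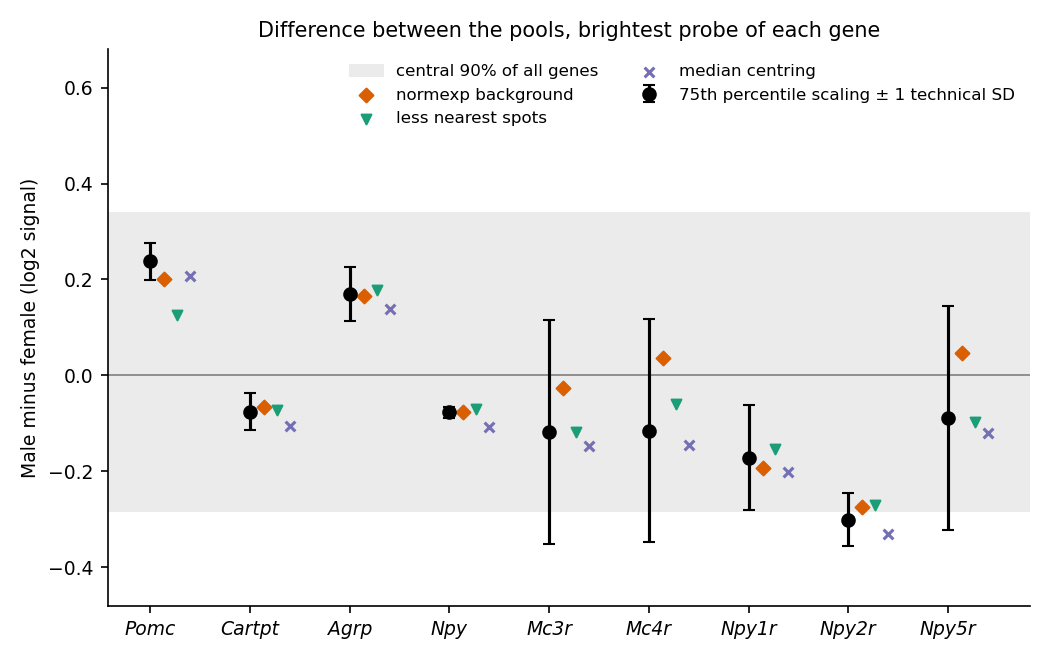
Male minus female log2 signal of the brightest probe of each gene (black points, bars of 1 technical SD), with coloured marks for normexp background correction, for the difference less the median of the 18 nearest spots and for median centring; the grey band holds the central 90% of all genes. Pomc and Agrp are above 0 in all 4, Npy2r is the lowest in all 4, and Mc4r and Npy5r cross 0 with normexp.

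As a set, the 5 receptors had a median difference of -0.12 and the 4 precursors one of 0.05. The median over all 9 genes was -0.09, against -0.016 over all genes. With normexp the receptors' median was -0.03 and the median over the 9 genes -0.03, against 0.0079 over all genes, and 5 of the 9 genes were lower in the male pool, against 46.5% of all genes. The precursors' median was 0.02 with median centring and 0.17 without spots in patches, where Cartpt was left out. Other neuronal genes had a median below 0 too. Of 9 general neuron genes 8 were lower in males, against 55.0% of all genes (median -0.06, and -0.10 less the local medians). Among them were Snap25, a vesicle release gene, at -0.15 (-0.05 less the local medians) and Stmn2, a gene of growing axons, at -0.13. Meningeal fibroblast and red blood cell genes went the other way, with 8 of 8 fibroblast genes higher at a median of 1.25 and 4 of 4 red cell genes higher at a median of 0.86. Those at least 2-fold apart were Col1a1, Col1a2, Col3a1, Ogn, Slc6a13 and Slc22a6, at 1.20 to 1.82, although Col3a1 was 1.80-fold apart with normexp, and Hbb and Ahsp led the red cell genes at 0.87 and 0.88, the latter at 0.45 with normexp. The measured fibroblast genes summed to 235% of the 75th percentile in males and 94.8% in females, and the red cell genes to 180% and 101%. Of the tanycyte and astrocyte genes 4 of 5 were higher in males (median 0.27, 0.16 less the local medians), with Vim at 0.46 and Gfap at 0.34. Of the tanycyte markers, Crym was lower in males at -0.15 over 10 spots with a technical SD of 0.012, Rax was not well above background, and Gpr50 was so in the female pool alone. The part of these shifts in the values of the feeding genes was not tested. Over all genes 45.0% were higher in males, and the lists were chosen with earlier results of these data known.

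The other members of the melanocortin and neuropeptide Y families were mostly dim. Of 13 listed, 11 had a probe and 7 were well above background on both arrays, 3 of them higher in males and 4 lower. The share lower was 57.1%, near the 55.0% of all genes. The median of these genes was -0.03 and ran from -0.06 to 0.03 over the alternatives. The Npy4r gene, the receptor for pancreatic polypeptide, had the largest difference at 0.55 with a technical SD of 0.23 (0.26 with normexp), from 2.49% in males and 1.70% in females. Sdc3, a proteoglycan that helps agouti-related peptide act, was at -0.16 with a technical SD of 0.11 (-0.09 less the local median). Mrap2, which encodes an accessory protein of Mc4r, was at -0.05 (-0.09 with normexp), and Mgrn1 and Atrn, known from coat colour mutants of the agouti pathway, were at 0.06 and -0.03. The receptor genes Mc2r and Mc5r, of the adrenal and of exocrine glands, did not pass in either pool.

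The enzymes that cut, finish and break down the peptides differed in both directions. Of 11 listed, 10 were well above background on both arrays, 4 of them higher and 6 lower in males. The share lower was 60.0%, near the 55.0% of all genes (median -0.05, from -0.08 to 0.0026 over the alternatives). Pcsk1 and Pcsk2, the convertases that cut pro-opiomelanocortin, were at -0.12 and -0.10 (-0.07 each with normexp), and Cpe, which trims the cut ends, was at -0.01 (0.01 with normexp). Pam, which amidates peptide ends, was at -0.14 with a technical SD of 0.038 (-0.21 less the local median). Prcp, an enzyme that inactivates melanocyte-stimulating hormone, was dim and at 0.48 with a technical SD of 0.21 (0.18 with normexp). Scg5, the chaperone of Pcsk2, was at -0.12 over 8 spots with a technical SD of 0.014. Dpp4, which trims neuropeptide Y, was well above background in males alone, at least 1.73-fold above females. It was dim there, at 0.99% on 1 spot with a technical SD of 0.21, near the dimmest detected probe of the male array (0.69%).

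Receptors for body signals in the arcuate nucleus, with their relays, were higher in males for 5 and lower for 8 of 13, or 61.5% against 55.0% of all genes (median -0.07, and -0.03 with normexp). Lepr, the leptin receptor, was at 0.09 (0.05 less the local median) and Insr, the insulin receptor, at -0.15 (-0.07 with normexp), each on a dim probe with a technical SD of 0.23. Ghsr, the ghrelin receptor, was at -0.33 near the background (-0.14 with normexp), and Socs3, a brake on leptin signalling, was at 0.32 with a technical SD of 0.082. Htr2c, the serotonin receptor of Pomc neurons, was brighter and at -0.16 with a technical SD of 0.038. Transcription factors of the feeding neurons leaned up for 3 and down for 4 in males, or 57.1% down (median -0.08, from -0.13 to 0.0025 over the alternatives). Isl1, which switches on Pomc in development, was at -0.45 with a technical SD of 0.11, and Neurog3 was at -0.79 on a dim spot in a patch (-0.10 with normexp). Tbx3, which maintains the identity of these neurons, was at 0.23 with a technical SD of 0.11.

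Among genes of melanocortin target neurons, 3 leaned to the male and 6 to the female pool, and their median was -0.03 (from -0.06 to -0.03 over the alternatives). Bdnf, a growth factor downstream of Mc4r, was at -0.41 with a technical SD of 0.23 (-0.21 with normexp), and Crh, the corticotropin-releasing hormone gene, stood at -0.40 with a technical SD of 0.11 on a spot in a patch (-0.18 less its local median). Of the other arcuate neuron genes, 5 leaned to the male and 8 to the female pool (median -0.09), and 1 of these 13, Kiss1 (kisspeptin), was at least 2-fold apart, at -1.22 on a dim probe (-0.40 with normexp). Tac3 (neurokinin B), made by the kisspeptin neurons, was at -0.43 with a technical SD of 0.038. Its spot lay in a patch. Taking off the local median moved it to -1.57, whereas normexp left it at -0.41, so the size of the Tac3 difference is uncertain. The 13 genes ran from -1.22 for Kiss1 to 0.67 for the prolactin receptor gene Prlr (0.12 with normexp). Both ends were dim, with a technical SD of 0.23, and the Prlr spot lay in a patch. The brighter Ghrh was at 0.60 with a technical SD of 0.056. The 4 feeding precursors lay between -0.08 and 0.24, but a range widens with the number of genes and with dimness, so the 2 ranges are not comparable. Peptide genes of neighbouring hypothalamic neurons were mostly lower in males (11 of 13, or 84.6%, against 55.0% of all genes, median -0.17). Nts, the neurotensin gene, was at -0.39. The shares lower in males were nearer that of all genes for the melanocortin target genes (66.7%) and the other arcuate genes (61.5%). These lists are not separate. Crh, Trh and Oxt, all lower in males, were in both the target and the neighbouring list, and Pdyn was in both the target and the other arcuate list.

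**Figure D4:**
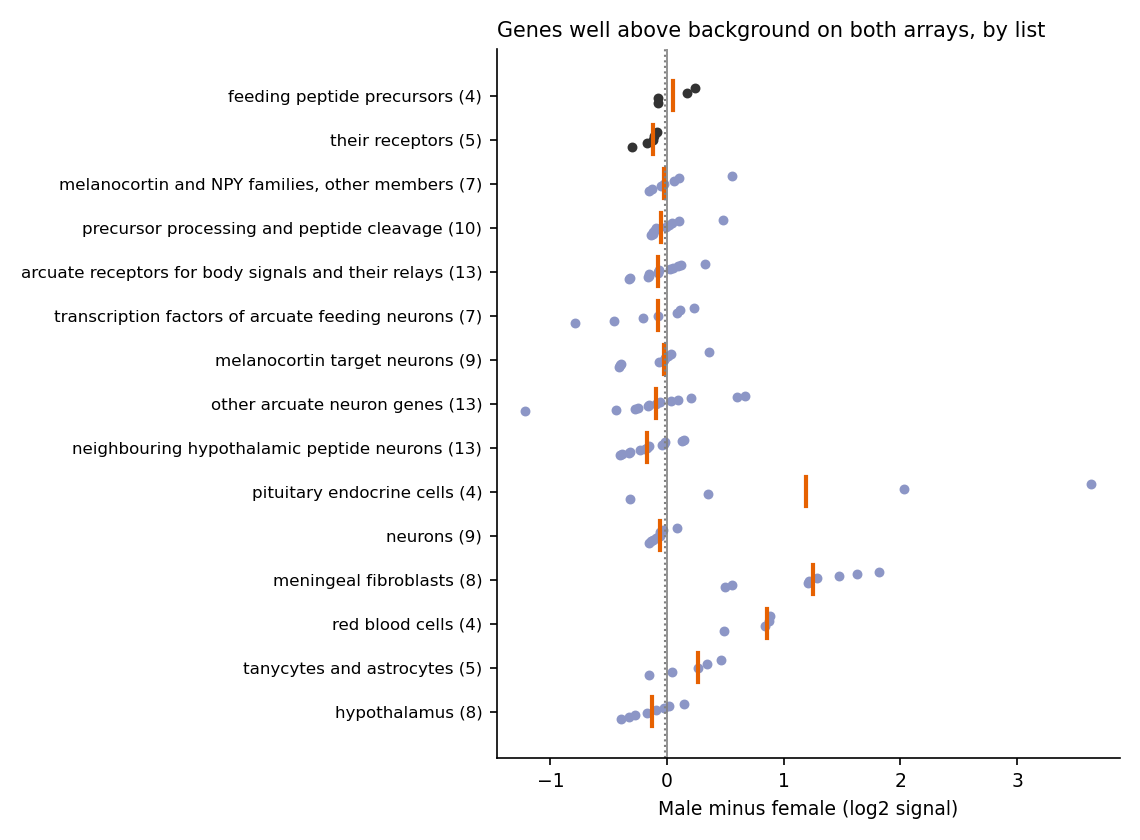
Male minus female log2 signal of genes well above background on both arrays, by list, with the number of genes in brackets; points are genes, orange bars list medians, and the dotted line the median over all genes (-0.016). The feeding precursors and receptors lie within -0.30 to 0.24, while the fibroblast and red blood cell lists lie wholly above 0.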

How the data were processed

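Per the file headers, the authors' array files hold the processed spot intensity of Agilent Feature Extraction 11.5.1.1 (protocol GE1_1105_Oct12, design build rn4), with background subtracted and no scaling between arrays, and median intensities of spot and local background; the submitters' processing notes name version 9.1. The deposited series matrix holds intensity values equal to the processed signal as a percentage of the array's 75th percentile, as found by comparison. The 664 spots flagged as feature outliers on 1 array or both were dropped. Signals were divided by the 75th percentile of their array's rat spots, put on a log2 scale and averaged per probe. A probe was called well above background if over 50% of its spots had that flag, and a gene took its brightest probe. Accessions were matched to RefSeq GRCr8 symbols for 46.3% of 45591 probes. A dim side was raised to the lowest probe signal well above background on its array. Technical SD came from repeat spots, pooled by brightness and divided by the root of the spot number. A spot was in a patch when at least 2 of its 18 nearest measured spots were 2-fold apart in 1 direction. No test was run. From each list, genes at least 2-fold apart, or else the 2 with the largest differences, were named; other list genes are given for their role and were chosen after their values were seen. Members and lists were chosen with earlier results of these data known. The number of arrays limits the precision. Scripts ran in Python 3.11.15 and R 4.3.3 with limma 3.58.1 and were tested on simulated data.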

Additional observations from a re-analysis of the deposited data

How the results depend on the processing

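Median centring, quantile normalization, normexp with an offset of 50 (on median spot signals, since means were not among the columns used), leaving out spots in patches, keeping outlier spots, averaging probes and, for single genes, the deposited matrix were tried, and 2 alternatives were added after the data were seen. Of 70 alternative values of the 9 genes, 68 kept their sign, and the exceptions were Mc4r and Npy5r with normexp. Many of the 70 only repeat the main value, so this count overstates how far the signs were tested. Keeping outlier spots and averaging probes changed none of the 9 genes, and the deposited matrix holds the same signal. Without spots in patches, Npy alone changed (-0.074) among the genes with a value. With normexp, 4 of the 9 genes were higher in the male pool and their median was -0.026. Less the median of the nearest spots, the SD was taken anew and was larger for Pomc, Agrp and Npy. On that scale 1 gene (Npy2r) was more than 2 technical SD apart, against 11.3% of all genes. With an SD that does not pair spots across arrays, 3 were, against 11.7%, Agrp standing at 1.95. The median of the precursor processing list was 0.0026 with the mean over probes. No gene of the 9 was 2-fold apart under any alternative run across all genes in which it had a value. Cartpt and Npy5r had none without spots in patches. The share of all genes lower in the male pool was 64.8% with median centring and 46.5% with normexp. No paired analysis was possible because each sex was 1 pool on 1 array. Signal close to background limits Mc3r, Mc4r and Npy5r.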
